A study of Mus musculus with 4 samples.

Results

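The 10 genes Trim28, Setdb1, Suv39h1, Suv39h2, Ehmt1, Ehmt2, Cbx1, Cbx3, Cbx5 and Atrx encode factors that write, read or maintain histone H3 lysine 9 (H3K9) methylation and heterochromatin. They were chosen by name for this role, and all 10 were found among the 28250 genes with a value in the RNA-seq of mouse embryonic stem cells (ESC). The cells were TBV2, a feeder-dependent ESC line that the study kept undifferentiated with LIF, and every comparison here is within this single line. The control group (solvent, 2 libraries) received the vehicle for 24 h, and the treated group (MS-275, 2 libraries) received 5 µM MS-275 for 24 h. MS-275 (Entinostat) inhibits class I histone deacetylases. The labels do not say whether the replicates were separate cultures, so the p-values measure the spread between these libraries, which may be technical.

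Methylation of H3K9 is laid down by SET domain enzymes and is bound by heterochromatin protein 1 (HP1), which holds chromatin in a silent state. The same lysine can instead be acetylated, so that deacetylation precedes its methylation. In ESC, TRIM28 brought to DNA by KRAB zinc finger proteins recruits SETDB1 to retroviral elements and imprinted regions, SUV39H1 and SUV39H2 methylate pericentromeric repeats, EHMT1 (GLP) and EHMT2 (G9a) act mainly in euchromatin, and ATRX with DAXX deposits histone H3.3 at repeats and telomeres.

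Each gene has a normalized expression value, a signal computed by the authors whose formula is not given in the sources used here. Fold changes are on the scale log2(value + 0.005) and were tested with limma, and p was adjusted over 20336 genes (Benjamini-Hochberg). The same replicate number marks a pair of libraries, 1 of each group, and the fit with the replicate as a block compares the groups within pairs. The aligned reads, each 35 bases long, gave a second readout: the number of distinct positions and strands at which a read began on the exons of a gene, tested with limma-voom over 16994 genes. The libraries held 9785619 to 23467935 alignments. In 1 library of each group 53.2% (solvent) and 54.4% (MS-275) of the alignments repeated a position, and in the others 0%. The libraries with repeats were deposited with replicate 1 of each group, but their file names and the headers of the values give opposite ages, so which alignments lie behind which value is uncertain. The comparison of the groups does not depend on it, and replicate numbers below are those given with each file.

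The labelled cell type was checked on its markers. All 10 ESC markers were present, among them Pou5f1 with 0.727 and 2.33 with solvent (replicates 1 and 2) and 0.575 and 0.786 with MS-275. Their summed value was 6.22 and 24.6 with solvent and 5.30 and 15.1 with MS-275. In the fit with the block, where 6.46% of all genes fell and 21.0% rose, 3 of the 10 fell and 0 rose. The 7 feeder fibroblast markers summed to 0.265 and 0.255 with solvent and 0.480 and 0.590 with MS-275. With the block 4 of them rose, and none was below 0.001 in every library. Lum, among these 4, had 0.000660 and 0.00302 with solvent. It needed its MS-275 values to reach the filter of 0.001 in at least 2 libraries, so its test cannot support a rise. Of 9 cell cycle genes measured, of 10 listed, 2 fell and 0 rose with the block, and the median log2 fold change was -0.57. Of 7 early lineage markers 3 rose and 1 fell, with a median of 0.42. These levels moved together with the genes described below, and their part in those results was not tested. In bulk RNA, fewer cells of a type and less RNA per cell cannot be told apart.

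Atrx, Suv39h2 and Cbx5 had lower values with MS-275 in both pairs, and Suv39h1 had higher values in both. The 250 bases before their first listed transcription starts (RefSeq, GRCm38.p6, read on the strand of the gene) are shown because these are the genes called in at least 1 fit with the block. Capitals mark 3 motifs on either strand. For the GC box the letters GGGCGG were searched. The second motif was the CCAAT box, by its own letters. The cyclic AMP response element (CRE) was searched as TGACGTCA, which reads alike on both strands. No capitals in these 4 stretches belong to more than 1 motif.
Atrx: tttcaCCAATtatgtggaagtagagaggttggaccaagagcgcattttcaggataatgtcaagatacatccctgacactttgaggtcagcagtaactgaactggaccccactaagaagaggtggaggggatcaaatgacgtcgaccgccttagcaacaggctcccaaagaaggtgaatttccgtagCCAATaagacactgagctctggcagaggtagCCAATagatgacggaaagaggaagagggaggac
Suv39h2: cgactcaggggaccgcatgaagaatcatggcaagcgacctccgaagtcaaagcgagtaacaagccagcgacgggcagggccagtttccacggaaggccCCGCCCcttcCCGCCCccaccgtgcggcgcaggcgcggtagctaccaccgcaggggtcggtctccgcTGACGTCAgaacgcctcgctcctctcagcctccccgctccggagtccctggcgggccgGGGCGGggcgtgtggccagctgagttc
Cbx5: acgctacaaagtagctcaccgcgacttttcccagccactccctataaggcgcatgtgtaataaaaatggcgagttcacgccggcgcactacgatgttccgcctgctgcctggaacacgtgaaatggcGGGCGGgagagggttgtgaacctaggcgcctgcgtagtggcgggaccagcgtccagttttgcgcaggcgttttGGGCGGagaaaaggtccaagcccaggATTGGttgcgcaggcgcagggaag
Suv39h1: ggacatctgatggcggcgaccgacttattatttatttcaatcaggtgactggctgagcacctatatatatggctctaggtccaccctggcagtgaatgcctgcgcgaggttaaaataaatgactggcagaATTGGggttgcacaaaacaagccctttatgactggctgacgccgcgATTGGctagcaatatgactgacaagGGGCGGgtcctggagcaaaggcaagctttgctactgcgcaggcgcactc
The Atrx stretch is chrX:105929373-105929622 (minus strand), that of Suv39h2 chr2:3474987-3475236 (minus), that of Cbx5 chr15:103239853-103240102 (minus) and that of Suv39h1 chrX:8074761-8075010 (minus).

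The 3 genes with lower values differed in these letters. The Atrx stretch held 3 CCAAT boxes, no GC box and 6 CG dinucleotides, which is the median of 32851 promoters. At least 3 CCAAT boxes occurred in 2.79% of those promoters. Suv39h2 held 3 GC boxes (at least 3 in 8.47% of promoters), a CRE (1.55% of promoters) and 27 CG dinucleotides. Cbx5 held 2 GC boxes and 1 CCAAT box, with 22 CG dinucleotides. Suv39h1 held 1 GC box and 2 CCAAT boxes, with 11 CG dinucleotides. These counts depend on the start chosen. A second listed start of Cbx5 held 1 GC box, no CCAAT box and 7 CG dinucleotides. That of Suv39h1 held 1 GC box, no CCAAT box and 25 CG dinucleotides. Of the 32851 promoters, 32.7% held at least 1 GC box and 33.8% at least 1 CCAAT box. A match of letters is a description and not a binding site.

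Without the block, limma called 0 of the 10 genes at an adjusted p of 0.05, against 0.00492% of all genes tested. At an unadjusted p under 0.05 it was also 0 of the 10, against 17.4% of all genes (2974 higher and 564 lower). With the block, 2 of the 10 fell (Suv39h2 and Atrx), against 6.46% of all genes, and 0 rose, against 21.0% of all genes. At distinct alignment positions without a block, 2 of the 10 (Cbx5 and Atrx) fell, against 5.08% of genes, and 0 rose, against 15.1%. At distinct positions with the block, 3 fell (Suv39h2, Cbx5 and Atrx), against 13.8%, and 1 rose (Suv39h1), against 29.7%. The median log2 fold change was -0.13 over the 10 genes and 0.20 over all genes tested. The median over all genes was 0.03 when libraries were scaled by the median ratio and -0.03 under quantile normalization.

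The direction of the values in the libraries shows the same spread of responses. Both MS-275 values lay below both solvent values for 2 of the 10 genes (12.0% of all genes), and above them for 0 (32.3% of all genes). Counted by pair, 5 genes were lower in both pairs (26.5% of all genes), 3 were higher in both (50.0%), and the other 2 went opposite ways. The plot of values by library shows that for several of the genes the step between replicates exceeded the step between groups.

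**Figure D1:**
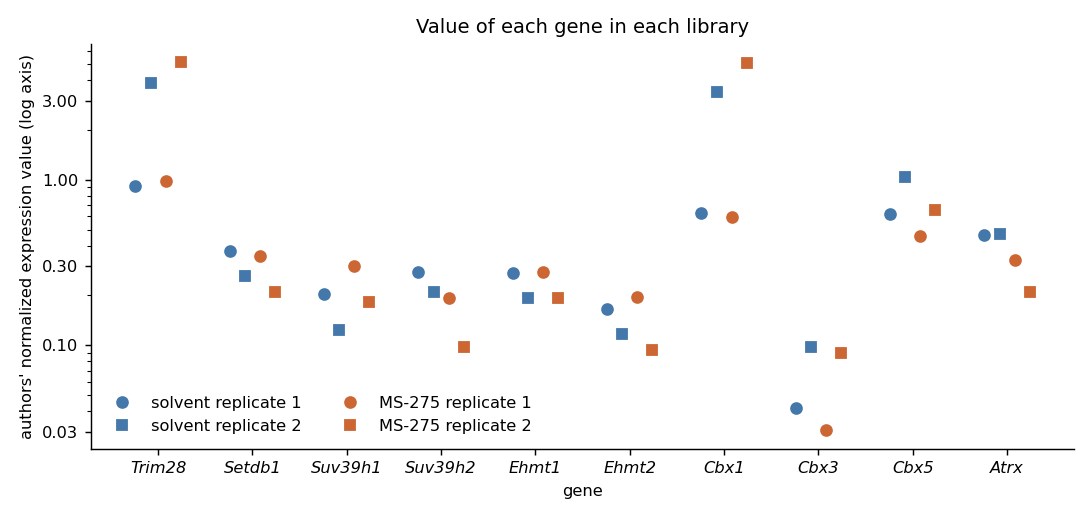
The authors' normalized expression value (vertical log axis) of each of the 10 genes in each library, with solvent in blue, MS-275 in orange, circles for replicate 1 and squares for replicate 2. The MS-275 points of Suv39h2 and Atrx lie below both solvent points, while those of Trim28 and Cbx1 lie far apart by replicate, at 0.978 and 5.12 for Trim28 with MS-275.

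Trim28 (chr7:13609501-13616384, mm9, plus strand) encodes the corepressor that links KRAB zinc finger proteins to SETDB1 and HP1. Its value was 0.919 and 3.82 with solvent (replicates 1 and 2) and 0.978 and 5.12 with MS-275. The groups overlapped, and replicate 2 was 4.15 times replicate 1 with solvent and 5.23 times with MS-275. On the log2 scale the fold change was 0.26 (SE 1.54 without and 0.420 with the block), and the adjusted p was 0.974 without and 0.690 with the block. At distinct positions the spread was much smaller. They were set per length as a normalised level, the number of distinct positions per 1000 unique windows of the gene and per 1000000 distinct positions of the library, where a unique window is a stretch of 35 exon bases found once in mm9. Trim28 had a normalised level of 65.8 and 66.0 with solvent, and of 73.0 and 72.0 with MS-275. A repeated position counts once in this level, which is bounded by the number of starts available. It can therefore narrow differences in genes with many alignments a position, and the part of this in the smaller spread was not tested. With all alignments, per 1000000 alignments, the levels were 184 and 66.0 with solvent and 190 and 72.0 with MS-275, so the smaller spread holds for distinct positions only. The blocked log2 fold change of distinct positions was 0.15 with a 95% confidence interval from -0.05 to 0.36 (adjusted p = 0.231).

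Setdb1 (chr3:95127447-95161124, minus) encodes the methyltransferase recruited by TRIM28. Its value was 0.372 and 0.263 with solvent and 0.346 and 0.210 with MS-275. It was lower with MS-275 in both pairs (-0.10 and -0.32 on the log2 scale), but the groups overlapped. This is a log2 fold change of -0.21 (SE 0.436), with an adjusted p of 0.903 without and 0.525 with the block. At distinct positions with the block the interval of the log2 fold change was -0.38 to 0.09. Its exons share bases with Lass2, and these were left out of the alignment counts.

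Suv39h1 and Suv39h2 encode a pair of enzymes that trimethylate H3K9 at pericentromeric heterochromatin, and their values differed between the groups in opposite directions. Suv39h1 (chrX:7638297-7651886, minus) had 0.205 and 0.123 with solvent and 0.300 and 0.182 with MS-275. The value was 1.46 times as high with MS-275 in the first pair and 1.49 times in the second, although the groups overlapped because replicate 2 was lower in both. The log2 fold change was 0.55 (SE 0.429 without and 0.217 with the block), and it did not pass the test (adjusted p = 0.618 without and 0.0736 with the block). At distinct positions Suv39h1 rose only in the fit with the block, by 0.41 (95% confidence interval 0.13 to 0.68, adjusted p = 0.0160). Without the block the adjusted p was 0.112. Of 5 fits with the block over the readouts and scalings, 2 called it.

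Suv39h2 (chr2:3373087-3392303, minus) had 0.276 and 0.209 with solvent and 0.192 and 0.0972 with MS-275. Both MS-275 values were below both solvent values, at 0.697 times solvent in the first pair and 0.465 times in the second. The log2 fold change was -0.79 (SE 0.431), and the adjusted p was 0.412 without and 0.0177 with the block. Suv39h2 fell in all 5 fits with the block, with adjusted p from 0.00167 to 0.0177, and in none without it (lowest adjusted p 0.0963). Its normalised level at distinct positions was 15.4 and 17.7 with solvent and 9.83 and 13.1 with MS-275. All of its 4172 exon windows were found once in mm9.

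Because both genes of the pair are measured in each library, their ratio does not depend on a scaling factor of the library. The log2 ratio of the values of Suv39h2 over Suv39h1 was 0.42 and 0.75 with solvent and -0.63 and -0.87 with MS-275. The groups did not overlap, and the difference was -1.33. The exact permutation test, two-sided, gave p = 0.333, which is the smallest that 2 libraries against 2 can give (adjusted over 5 ratios 0.833), so it could not pass any usual threshold. The level per length crossed in the same way at distinct positions. Suv39h2 had a higher normalised level than Suv39h1 in both solvent libraries (15.4 against 13.5, and 17.7 against 13.9), and a lower one in both MS-275 libraries (9.83 against 16.5, and 13.1 against 18.0). The normalised level also counts exon bases shared with other genes. On unshared exons alone, the distinct positions per 1000 bases and per 1000000 crossed likewise (14.3 against 12.4, and 17.01 against 12.4, with solvent, and 9.11 against 15.9, and 12.5 against 16.5, with MS-275). The difference in the log2 ratio was -0.93 at distinct positions and -1.15 with all alignments, and between -1.50 and -1.17 for the values with a library left out.

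**Figure D2:**
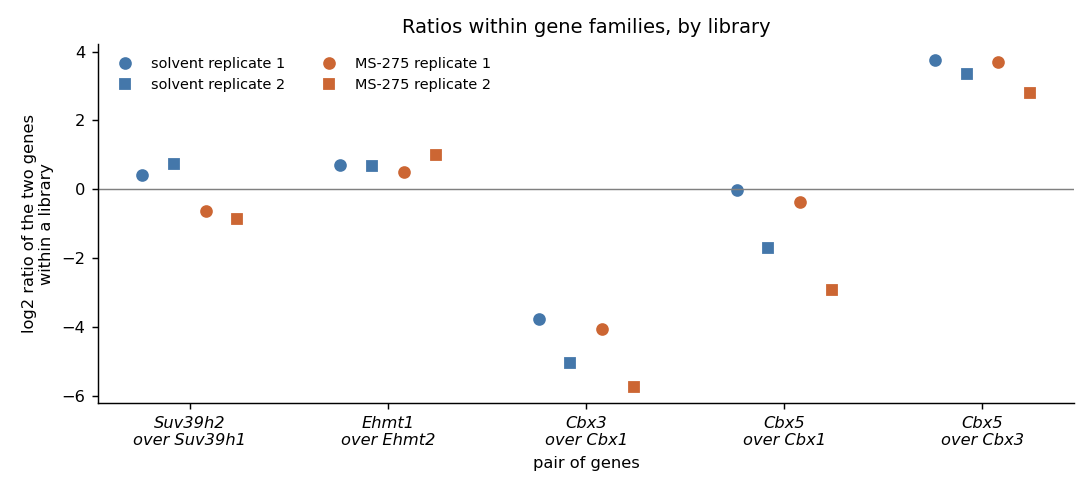
Log2 ratio of the values of a pair of related genes within each library (vertical axis) for 5 pairs, coloured and shaped as in the plot of values. Suv39h2 over Suv39h1 is above 0 in both solvent libraries and below 0 in both MS-275 libraries, whereas the ratios to Cbx1 differ mainly between replicates.

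Ehmt1 and Ehmt2 encode the partners of the complex that mono- and dimethylates H3K9. Ehmt1 (chr2:24646289-24775129, minus) had 0.274 and 0.192 with solvent and 0.279 and 0.193 with MS-275. The values within each pair differed by less than the step between replicates. Its log2 fold change was 0.02 (SE 0.405; adjusted p = 0.993 without and 0.963 with the block), with a blocked 95% confidence interval from -0.45 to 0.48. Its sign was negative in 6 of 14 alternatives on the 4 libraries, among them median-ratio scaling and the alignment readouts. Ehmt2 (chr17:35035414-35050997, plus) had 0.165 and 0.117 with solvent and 0.195 and 0.0938 with MS-275, higher in the first pair and lower in the second. Its log2 fold change was -0.04 (SE 0.447, adjusted p = 0.987 without and 0.918 with the block), with a blocked interval from -0.53 to 0.45. At distinct positions with the block the intervals were -0.35 to 0.19 for Ehmt1 and -0.35 to 0.25 for Ehmt2. The log2 ratio of Ehmt1 over Ehmt2 was 0.71 and 0.68 with solvent and 0.51 and 1.004 with MS-275, which overlapped (difference 0.06, exact permutation p = 1). The sign of that difference turned at the alignments.

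Cbx1, Cbx3 and Cbx5 encode HP1 beta, HP1 gamma and HP1 alpha, the readers of methylated H3K9. Of the 3, only Cbx5 was called as lower, at distinct positions with and without the block and, with the block only, on all alignments and on the rescaled values. Cbx5 (chr15:103021975-103070247, minus) had 0.621 and 1.03 with solvent and 0.455 and 0.659 with MS-275. It was at 0.732 times solvent in the first pair and 0.637 times in the second, while the groups overlapped because solvent replicate 1 was below MS-275 replicate 2. The log2 fold change of the values was -0.55 (SE 0.601), with an adjusted p of 0.763 without and 0.145 with the block. The normalised level of Cbx5 at distinct positions was 62.6 and 59.2 with solvent and 41.7 and 40.0 with MS-275, with no overlap. There it fell by 0.56 on the log2 scale (SE 0.119, adjusted p = 0.0176) without the block, and with the block the adjusted p was 2.45e-05. Of 5 fits with the block, 4 called it.

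Cbx1 (chr11:96650441-96669954, plus) had 0.630 and 3.37 with solvent and 0.592 and 5.09 with MS-275. The replicates differed by 5.35 times with solvent and 8.60 times with MS-275, and the pairs went opposite ways (-0.09 and 0.59 on the log2 scale). Over both pairs the log2 fold change was 0.25 (SE 1.41, adjusted p = 0.972 without and 0.668 with the block), and it was negative at distinct positions (-0.05). With the block the interval at distinct positions was -0.27 to 0.21. The log2 ratio of Cbx5 over Cbx1 was -0.02 and -1.70 with solvent and -0.38 and -2.94 with MS-275, lower with MS-275 in both pairs and overlapping between the groups (difference -0.80, exact permutation p = 0.667). That of Cbx3 over Cbx1 differed by -0.50 and that of Cbx5 over Cbx3 by -0.29, each with an exact permutation p of 0.667.

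Cbx3 (chr6:51420359-51433703, plus) had the lowest values of the 10 genes, 0.0416 and 0.0979 with solvent and 0.0305 and 0.0901 with MS-275. It was lower with MS-275 in both pairs, and the groups overlapped. The log2 fold change was -0.25 (SE 0.635, adjusted p = 0.924 without and 0.506 with the block). Its exons are partly repeated in the genome, and the part of this in its value was not tested. Of its 3025 exon windows of 35 bases, 52.3% were found once in mm9, against 87.1% (Setdb1) to 100% (Suv39h2) for the other genes. Of 389 windows in its coding sequence, 9.0% were found once, and the median number of copies was 4. The coding window with the most copies (10 in mm9) and one found once are shown, since a 35-base read from the first cannot be placed.
Cbx3, 10 copies: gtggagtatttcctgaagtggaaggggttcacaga
Cbx3, 1 copy: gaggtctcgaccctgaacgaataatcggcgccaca
They lie at chr6:51425338-51425372 and chr6:51431748-51431782 of mm9. The deposited alignments held 0 to 4 distinct positions a library at repeated Cbx3 windows, against 81 to 133 at unique ones. The level of Cbx3 at the alignments thus rests on its unique stretches, and how the authors treated the repeated ones in their values is not given in the sources used here.

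**Figure D3:**
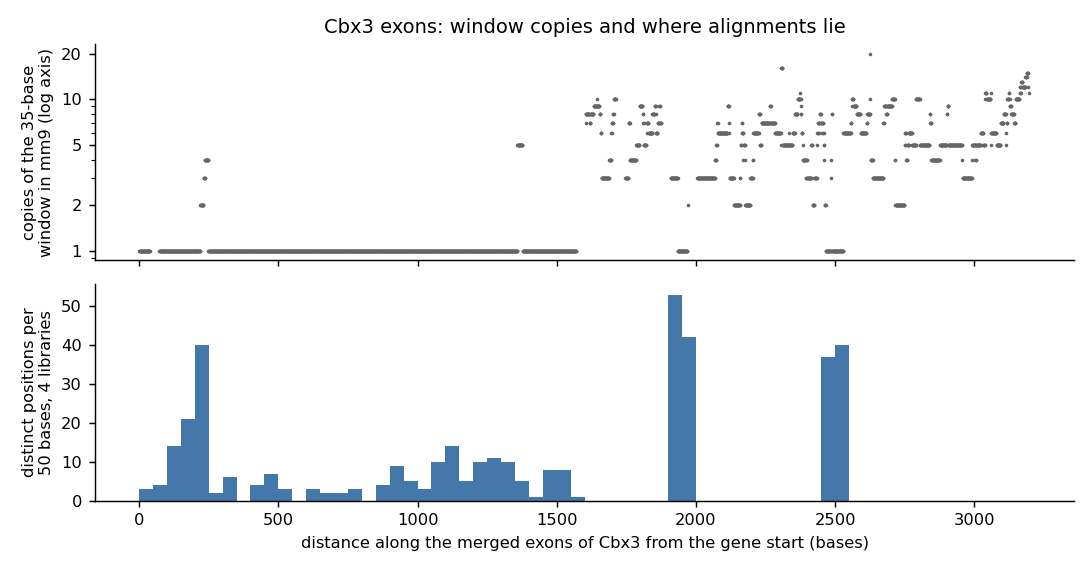
Along the merged exons of Cbx3 (horizontal axis, bases from the gene start), the number of copies in mm9 of each 35-base window (upper panel, log axis) and the distinct alignment positions per 50 bases summed over the 4 libraries (lower panel). Alignments lie where windows have 1 copy and are nearly absent where copies rise to as many as 20. Long stretches of windows with 1 copy also held few or none.

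Atrx (chrX:102992954-103124736, minus) encodes the chromatin remodeller that works with DAXX. Its value was 0.465 and 0.472 with solvent and 0.325 and 0.209 with MS-275. Both MS-275 values were below both solvent values, at 0.699 times solvent in the first pair and 0.442 times in the second. The log2 fold change was -0.83 (SE 0.436), the furthest from 0 of the 10, and the adjusted p was 0.387 without and 0.0188 with the block. Atrx fell in all 5 fits with the block (adjusted p 5.17e-06 to 0.0188). Without the block it fell at distinct positions, by 0.66 (SE 0.107, adjusted p = 0.00829). Its normalised level there was 28.9 and 33.8 with solvent and 18.9 and 20.2 with MS-275. With 6300 coding windows, all found once in mm9, it is the longest coding sequence of the set.

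**Figure D4:**
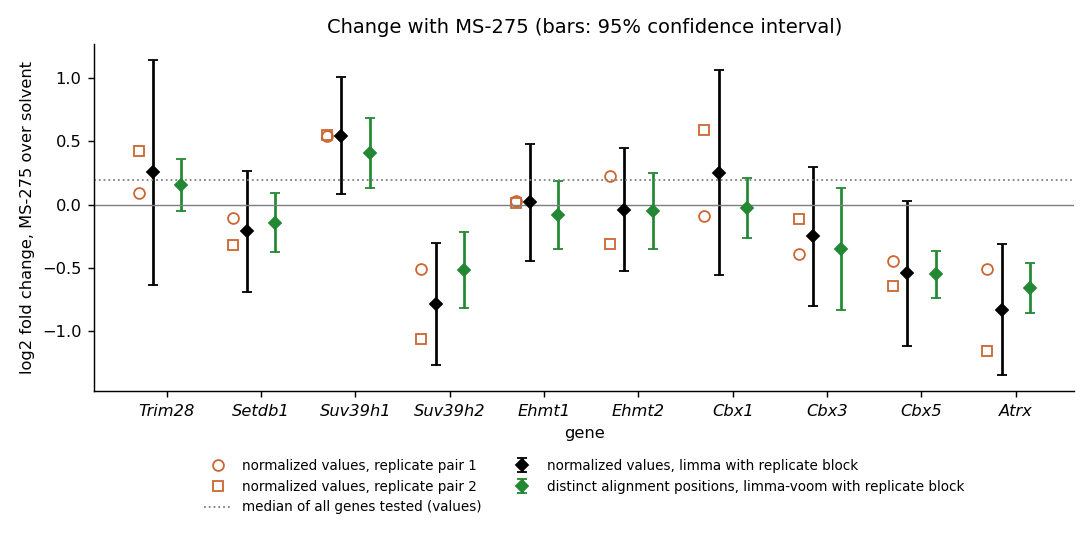
Log2 fold change of MS-275 over solvent (vertical axis) for each gene, with the 2 replicate pairs of the values as open symbols, the blocked limma fit of the values in black and the blocked fit of distinct positions in green, both with 95% confidence intervals. The dotted line is the median of all genes tested (0.20). The green intervals of Suv39h2, Cbx5 and Atrx lie below 0, that of Suv39h1 lies above 0 and those of the other 6 genes cross it.

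The levels can be compared between genes only per length, here by the normalised level at distinct positions. The order below is by that level, in which a repeated position counts once. With solvent the order was Trim28 (65.9 ± 0.132, SD, n = 2), Cbx5 (60.9 ± 2.44), Cbx1 (40.2 ± 3.32), Atrx (31.3 ± 3.46), Setdb1 (28.2 ± 4.42), Suv39h2 (16.6 ± 1.59), Ehmt1 (13.8 ± 1.98), Suv39h1 (13.7 ± 0.269), Ehmt2 (11.6 ± 0.675) and Cbx3 (6.64 ± 1.44). The ranges of the neighbours Atrx and Setdb1 overlapped, as did those of Ehmt1 and Suv39h1. The last place of Cbx3 holds for the mean over all its unique windows, most of which held no position. A short unique stretch of Cbx3 held many, so its place depends on which unique windows are counted. The corepressor and the HP1 genes Cbx5 and Cbx1 were thus above all 5 of the listed methyltransferase genes in both solvent libraries. With MS-275 the mean of Cbx5 was 40.8 ± 1.19 and that of Cbx1 39.2 ± 7.24, and their ranges overlapped. Atrx stood at 19.6 ± 0.933 with MS-275 and no longer overlapped Setdb1 (25.2 ± 6.14). The order with solvent depended in part on counting a repeated position once. With all alignments in solvent replicate 1, which held repeats, the level of Cbx1 (151) was above that of Cbx5 (100). In that library Cbx3 (12.5) was also above Suv39h1 (9.38), Ehmt1 (9.32) and Ehmt2 (8.22). In solvent replicate 2, without repeats, the levels were the same by either count.

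The step between replicates differed by gene in a way that the alignments also showed. By replicate number, however, the direction in all alignments was opposite to that in the values, in both groups, for every gene except Atrx. The values of Trim28 and Cbx1 with solvent were 4.15 and 5.35 times as high in replicate 2, while the libraries with repeats were deposited with replicate 1. In the libraries with repeats, Trim28 had 5.91 alignments a distinct exonic position with solvent and 5.63 with MS-275, and Cbx1 had 7.55 and 10.1. For Ehmt2 these numbers were 1.45 and 1.53. The level of all alignments in the library with repeats over that without was 2.81 (solvent) and 2.65 (MS-275) for Trim28 and 3.95 and 5.95 for Cbx1. For distinct positions the ratio was 1.02 and 1.03 for Trim28 and 1.12 and 1.30 for Cbx1. A step the other way was also mirrored. For Setdb1 with solvent, replicate 2 over 1 was 0.706 in the values. The library with repeats over that without was 0.726 in all alignments. For Atrx these were 1.01 and 0.940 with solvent, and 0.642 and 0.766 with MS-275. The genes with the large step between replicates in the values were thus those with many alignments a position, and their part in the values was not tested.

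Alignments inside introns were counted apart from those on exons, and whether the values include them is not given in the sources used here. They are given as distinct positions per 1000000 of the library, with no test. Atrx had 121 and 105 such intronic positions with solvent and 72.3 and 76.9 with MS-275. Cbx5 had 81.7 and 51.1 with solvent and 33.5 and 30.8 with MS-275. Suv39h2 had 6.20 and 4.80 with solvent and 2.52 and 2.93 with MS-275. For these 3 genes the log2 ratios of the means were -0.60, -1.05 and -1.01. Cbx3 introns had 33.3 and 29.0 with solvent against 17.3 and 19.4 with MS-275 (log2 ratio -0.76). In these 4 of the 10 genes both MS-275 libraries lay below both solvent libraries, against 22.6% of 13632 protein-coding genes with intronic positions, and in 0 they lay above, against 34.2%. For Suv39h1 the intronic log2 ratio was 0.31 with overlapping groups (46.9 and 26.6 against 60.4 and 30.7). The other 5 genes had intronic log2 ratios from -0.29 (Cbx1) to 0.26 (Trim28), all with overlap. Intronic reads were not separated by strand and may include overlapping transcripts, such as U2 and U6 within Atrx and Dclre1c at Suv39h2.

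**Figure D5:**
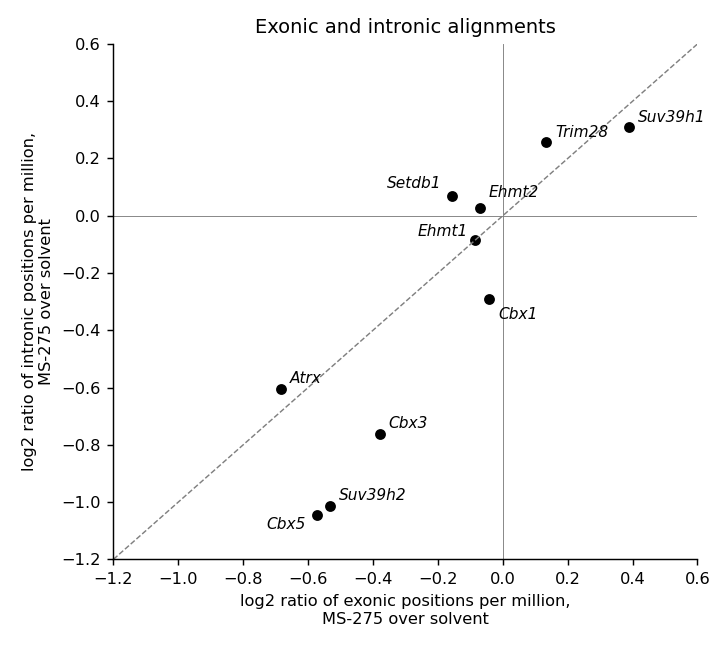
Log2 ratio of MS-275 over solvent for exonic (horizontal axis) and intronic (vertical axis) distinct positions per 1000000, 1 point a gene, with the dashed line marking equal ratios. Suv39h2, Cbx5, Cbx3, Atrx, Ehmt1 and Cbx1 lie at negative ratios on both axes, the last pair nearer to 0 on the exonic axis, and Suv39h1 and Trim28 at positive ratios on both.

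The other genes of the pathway were taken from fixed lists, and without the block 0 genes of any list were called by limma. With the block, the counts below are to be read against the 6.46% of all genes that fell and the 21.0% that rose in the same fit. Of 12 other H3K9 methyltransferases and cofactors, 3 fell and 1 rose with the block (median log2 fold change -0.16, against 0.20 over all genes). Zfp644, which encodes a zinc finger partner of the G9a/GLP complex, fell by 0.99 (adjusted p = 0.00314; values 0.280 and 0.212 with solvent, 0.141 and 0.102 with MS-275). D14Abb1e (Fam208a, or TASOR), a subunit of the HUSH silencing complex, fell by 0.79 (adjusted p = 0.0208; 0.456 and 0.437 against 0.305 and 0.216). Pphln1, another HUSH subunit, stood at 0.57 on the log2 scale (adjusted p = 0.0708). Mecom, a PRDM family gene, rose by 1.73 (adjusted p = 0.000437) from values of 0.00425 and 0.00155 to 0.0231 and 0.0189.

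Of 11 H3K9 demethylases 2 fell and 0 rose with the block, with a median of -0.39, and 8 were lower in both pairs (26.5% of all genes). Kdm3b fell by 0.84 (adjusted p = 0.0128; 0.308 and 0.250 against 0.208 and 0.113), and Kdm4c, which removes trimethylation, fell by 0.78 (adjusted p = 0.0160; 0.334 and 0.293 against 0.214 and 0.150). Kdm4b and Kdm4d had the largest positive log2 fold changes of the list, 0.25 and 0.43, neither past the test (adjusted p = 0.499 and 0.157).

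Of 14 ATRX partners and heterochromatin maintenance genes 3 fell and 0 rose (median -0.12). Smarcad1, a remodeller of heterochromatin, fell by 0.90 (adjusted p = 0.0105; 0.444 and 0.420 against 0.291 and 0.179), and Suv420h1, an H4K20 methyltransferase, fell by 0.83 (adjusted p = 0.0157; 0.157 and 0.148 against 0.107 and 0.0648). The third was Daxx, the partner of ATRX, named after its values were seen. It fell by 0.72 (adjusted p = 0.0287), from 0.200 and 0.187 to 0.145 and 0.0920. Chaf1a and H3f3b, which encodes histone H3.3, stood at 0.21 and 0.92 on the log2 scale (adjusted p = 0.521 and 0.145). The H3f3b values were 0.521 and 4.17 with solvent and 0.602 and 12.9 with MS-275, so the size rests on replicate 2.

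Of 8 TRIM28 partners and KRAB zinc finger genes 2 fell and 0 rose (median -0.19). Zfp819 fell by 1.67 (adjusted p = 0.000280), with 0.115 and 0.121 against 0.0425 and 0.0262. Zfp57, which guards imprinted regions with TRIM28, fell by 1.19 (adjusted p = 0.00774), with 0.804 and 0.840 against 0.545 and 0.233. Zfp809, which recognises a retroviral primer site, had a log2 fold change of 0.48 (adjusted p = 0.127). Of 9 HP1 partners 1 fell and 0 rose (median 0.11). This was Sgol1, a shugoshin of the centromere, which fell by 0.92 (adjusted p = 0.00857). Incenp (-0.09), Mis12 (0.23) and 4933421E11Rik (0.27), which encodes the HP1 interactor LRIF1, did not pass.

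Genes listed as repressed in ESC were counted as well, and H3K9 methylation at them was not measured. Not all the germline genes were silent with solvent. Dazl had 0.334 and 0.209, Sycp3 0.358 and 0.630, Mael 0.292 and 0.189, and Stk31 0.151 and 0.0942. Ddx4 had 0.160 and 0.116, and Hormad1 0.117 and 0.202. Brdt and Tex101 below were low, as were Asz1 (0.0280 and 0.00860) and Tdrd1 (0.0184 and 0.01125), and the others lay between. Dazl, Sycp3, Mael, Stk31, Asz1 and Tdrd1 are named after their values were seen. Of 12 germline genes 7 rose and 1 fell with the block, with a median of 0.94. Brdt, a testis bromodomain gene, rose by 2.84 (adjusted p = 1.72e-06), from 0.0302 and 0.0238 to 0.227 and 0.221. Tex101 rose by 2.43 (adjusted p = 2.87e-05), from 0.0156 and 0.00813 to 0.100 and 0.0702. Hormad1 fell by 0.94 (adjusted p = 0.0218), and Ddx4 had a log2 fold change of -0.08 (adjusted p = 0.819).

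Of 8 genes of the 2-cell state 6 were listed, and 5 of these rose with the block (median 1.92). Among the 5 was Tdpoz4 (named after its values were seen), with 0.000920 and 0.00153 with solvent. It needed its MS-275 values to reach the filter of 0.001 in 2 libraries, so its test cannot support a rise. Zscan4d rose by 2.51 (adjusted p = 9.70e-06), from 0.0415 and 0.0394 to 0.178 and 0.359, and Zfp352 rose by 2.47 (adjusted p = 3.79e-05), from 0.0112 and 0.00413 to 0.0960 and 0.0398. The Zscan4 genes are near-identical copies, so reads of 35 bases may be split among them. Of 7 trophectoderm genes 3 rose and 0 fell (median 0.73). Elf5 rose by 1.53 (adjusted p = 0.000602) and Cdx2 by 0.94 (adjusted p = 0.0155), both from values near the lower limit. With solvent these were 0.000960 and 0.000680 for Elf5 and 0 and 0.000200 for Cdx2, all under the 0.001 of the filter. Both genes thus passed the filter only through their MS-275 values. Gata3, the third of the 3 counted (named after its values were seen), had 0 and 0.00248 with solvent. It too needed its MS-275 values to pass the filter. The tests of these 3 genes therefore cannot support a rise. The share that rose in all genes was 21.0% with the same fit.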

How the data were processed

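RNA-seq of poly(A) RNA from TBV2 ESC, primed with random hexamers and not stated to mark strand, was analysed in 4 libraries grouped by their titles. The authors mapped the reads to mm9 and deposited, for each library, normalized expression signal values of 28250 genes made with Genomatix (aligner, version and formula not given in the sources used here) and the alignments. They also deposited shorter tables and tables of treated over control ratios, which were not used. The vehicle is named differently in the sources and is called solvent.

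Genes that reached 0.001 in 2 or more libraries were fitted with limma 3.58.1 (lmFit, eBayes with a trend; R 4.3.3) on log2(value + 0.005), and p was adjusted over all 20336. The replicate block is an alternative. Its pairing comes from the authors' headers, which call replicate 1 of both groups old, and libraries of the same number deviated together (r = 0.764 over the genes tested, after subtracting group means). Alignments were counted on GENCODE M1 exons of 1 gene (mm9), except that window counts and normalised levels use all exon bases of a gene, and genes with at least 10 distinct positions in at least 2 libraries were tested with limma-voom. Exact permutation tests used scipy 1.17.1, and tables and figures used Python 3.11.15, numpy 2.4.6, numba 0.67.0, pandas 2.3.3 and matplotlib 3.10.9. The steps were tested on simulated data.

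The 10 genes and the other lists were chosen with earlier results of these data known, and no test was made over a list. Of 125 list entries, 118 matched as written, 2 by another symbol and 2 by Entrez identifier, and 3 were not listed. From each list other than the markers, the 2 genes that rose most and the 2 that fell most in log2 fold change are named. The counts of window copies, normalised levels, intronic positions, alignments a position and promoter letters were added after the data were seen. Promoters are from RefSeq, where all 10 genes matched. Alternatives were other pseudocounts, filters, scalings, an untrended fit, the block, the alignments and each library left out.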

Additional observations from a re-analysis of the deposited data

How the results depend on the processing

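With 2 libraries a group, the fit without the block has little power where replicates differ, and a p that misses the threshold does not show that a gene kept its level. The depth behind a single value is unknown. Without the block, 0 of the 10 genes were called under pseudocounts of 0.001 and 0.02, no filter, a minimum mean of 0.01, median-ratio scaling, quantile normalization, no trend or all alignments. Over all genes these settings gave 0 higher and 0 lower, except 466 higher and 65 lower at the minimum mean of 0.01, and 567 and 32 with all alignments. Distinct positions gave 2568 higher and 864 lower, and lowered 2 of the 10. With the replicate block, 4277 genes were higher and 1314 lower (2 of the 10 lower). Block and median-ratio scaling gave 3405 and 2367 (3 lower), block and quantile normalization 2936 and 2961 (1 higher, 3 lower), block and distinct positions 5053 and 2343 (1 higher, 3 lower), and block and all alignments 4625 and 1844 (3 lower). The scaling thus moves the split of higher against lower calls.

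The sign turned for Ehmt1 under median-ratio scaling (-0.21, also with the block), distinct positions (-0.0782, and -0.0833 with the block) and all alignments (-0.16, and -0.14 with the block), and for Cbx1 at distinct positions (-0.0513, and -0.0294 with the block). The difference in the ratio of Ehmt1 over Ehmt2 turned to -0.0446 at distinct positions and -0.11 with all alignments. The cause was not tested. A fit without 1 library leaves a lone library, assumed to vary like the other group, and carries the step between replicates. These fits called 72 to 414 genes higher and 12 to 135 lower, and 0 of the 10. Their log2 fold changes ranged from -0.93 to 1.45 for Trim28, -0.56 to 0.14 for Setdb1, -0.24 to 0.28 for Ehmt1, -0.55 to 0.47 for Ehmt2, -1.30 to 1.80 for Cbx1, -0.96 to 0.46 for Cbx3, 0.19 to 0.90 for Suv39h1, -1.26 to -0.31 for Suv39h2, -0.91 to -0.18 for Cbx5 and -1.15 to -0.52 for Atrx. For the ratios they ranged from -1.34 to 0.33 (Cbx3 over Cbx1), -2.08 to 0.48 (Cbx5 over Cbx1), -0.74 to 0.15 (Cbx5 over Cbx3) and -0.19 to 0.31 (Ehmt1 over Ehmt2). The sign of Suv39h1, Suv39h2, Cbx5 and Atrx held in every alternative run. The size moved by over 1.5 times for Suv39h1 without any 1 of the 4 libraries and for Suv39h2 without either MS-275 library. It did so for Cbx5 without either solvent library or MS-275 replicate 1, and for Atrx without MS-275 replicate 2. With all 4 libraries it moved as far for Suv39h1 under median-ratio scaling (0.32, also with the block). The same held for Suv39h2 at distinct positions (-0.51, and -0.52 with the block) and Cbx5 with all alignments (-0.87, and -0.83 with the block).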
